A study of Mus musculus with 9 samples.

Results

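N6-threonylcarbamoyladenosine (t6A) is a modification of the tRNAs that read codons starting with A, placed on the adenosine next to the anticodon, at position 37. YRDC first joins threonine and bicarbonate to AMP, and the KEOPS complex then transfers the threonylcarbamoyl group to the tRNA. OSGEP is the catalytic subunit of KEOPS, TP53RK and TPRKB form its kinase arm, LAGE3 joins the complex at the other end, and OSGEPL1 does the work of OSGEP in mitochondria. The genes described here are those 6, Osgep, Lage3, Tprkb, Trp53rk, Yrdc and Osgepl1, chosen by name among the 22396 genes with deposited counts. The symbol Trp53rk corresponded to a pair of paralogous mouse genes on chromosome 2, Trp53rka and Trp53rkb, so the 6 names gave 7 identifiers.

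RNA recovered with FLAG-tagged RIG-I, a cytoplasmic sensor of RNA, was sequenced from B16F10 cells, a mouse melanoma line. The cells stably expressed FLAG-RIG-I and, from lentiviral vectors under puromycin selection, either a control shRNA, shCtr, or an shRNA that targets Osgep, shOSGEP#1 or shOSGEP#2, with 3 libraries per group from independent experiments. Total counts on genes were 40333037, 47750758 and 41805753 in shCtr replicates 1, 2 and 3, 34551436, 50224299 and 30697653 in shOSGEP#1, and 25460689, 568995 and 14914731 in shOSGEP#2. Because of its depth, shOSGEP#2 replicate 2 is shown apart, and the tests below used the other 8 libraries unless stated. Values are CPM, the count of a gene out of every 1000000 counts of the library, so each gives a share of what was recovered with RIG-I. Less of an mRNA in the cells, fewer cells holding it and less of it bound to RIG-I cannot be told apart in these libraries.

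All 7 melanocytic markers (Tyr, Tyrp1, Dct, Pmel, Mlana, Mitf, Sox10) had counts in each of the 8 deeper libraries. Their summed level was 6336, 6039 and 8473 CPM in shCtr, 6288, 7565 and 6840 CPM in shOSGEP#1, and 2617 and 3374 CPM in shOSGEP#2 replicates 1 and 3. The marker sum was thus lower in both deep shOSGEP#2 libraries than in every shCtr library, and 5 of the 7 markers were called lower there by edgeR at an adjusted p under 0.01, against 1 of 7, Tyr, in shOSGEP#1, beside 3.89% and 4.67% of all genes tested. The leukocyte markers summed to at most 1.68 CPM and the endothelial markers to at most 2.18 CPM in these 8 libraries, with Itgam at 0 in every library. The fibroblast list summed to between 3.54 and 6.27 CPM in shCtr and shOSGEP#1 and to 16.4 and 33.8 CPM in the deep shOSGEP#2 libraries, where Col1a2 was its most abundant gene, while Lum was at 0 throughout. Pdgfra had 4.44 CPM in shOSGEP#2 replicate 1 but 0.939 CPM, within the shCtr range, in replicate 3, and Dcn had 0.0786 and 0 CPM. Of the 3 fibroblast genes tested, edgeR called 0 against shCtr at 0.01. At 0.05 Col1a1 and Col1a2 passed in shOSGEP#2, with log2 fold changes of 2.06 and 2.31 (edgeR adjusted p = 0.0250 and 0.0249). So did 2674 of the 12744 genes tested, in either direction. Between the shRNAs edgeR called 2 at 0.01, Col1a1 and Col1a2, higher in shOSGEP#2 (6.23% of all genes). The part of these differences in the results below was not tested.

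Osgep (ENSMUSG00000006289, chromosome 14), the gene both shRNAs target, had 19.1, 19.9 and 15.5 CPM in shCtr. In shOSGEP#1 it had 3.76, 1.15 and 1.53 CPM. In shOSGEP#2 replicates 1 and 3 it had 0.0786 and 2.88 CPM, from 2 and 43 counts. Every deep shOSGEP library lay well below every shCtr library, and the deep shOSGEP#2 libraries were themselves far apart, with replicate 1 below all shOSGEP#1 libraries and replicate 3 among them. The shCtr mean was 18.2 ± 2.32 (SD, n = 3), beside 2.15 ± 1.41 (SD, n = 3), or 11.8% of it, for shOSGEP#1 and 1.48 ± 1.98 (SD, n = 2), or 8.15%, for the deep shOSGEP#2 libraries. The log2 fold change was −3.10 in shOSGEP#1, with a standard error of 0.73 and an adjusted p of 0.0128 (quasi-likelihood test of edgeR, Benjamini-Hochberg adjustment across the 12744 genes tested). It was −3.84 in shOSGEP#2 (standard error 0.93, edgeR adjusted p = 0.0150), and there the value rests on 2 libraries that are far apart, 1 of them with 2 counts, under the floor of 3. It was −2.78 without shOSGEP#2 replicate 1 and −7.86 without replicate 3. Each of these fits holds 1 shOSGEP#2 library, so their spread came from the other groups. At the threshold of an adjusted p under 0.01 neither comparison was called, and 0.455% and 1.04% of the genes tested had a lower log2 fold change.

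Whether Osgep was called varied with the libraries in the fit, the filter and the tool. With only shCtr and shOSGEP#1 in the edgeR fit, the log2 fold change of −3.11 had an adjusted p of 0.000973, and without shOSGEP#2 replicate 1 or replicate 3 the adjusted p was 0.000964 or 0.000920. Over 18 alternatives the adjusted p for shOSGEP#1 ran from 4.69e-06 to 1.00 (edgeR, DESeq2 or limma). For shOSGEP#2 it ran from 0.000838 to 0.719, with 0.000838 from edgeR without a filter and 0.00942 from DESeq2, both on the same 8 libraries. With all 9 libraries in the edgeR fit, the log2 fold changes were −3.10 (standard error 1.06, adjusted p = 0.811) and −3.95 (standard error 1.17, adjusted p = 0.302). Between the 2 shRNAs Osgep differed by −0.74 (shOSGEP#2 minus shOSGEP#1, 95% interval −2.65 to 1.17, edgeR adjusted p = 0.568), an interval that holds large differences in either direction.

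The shRNA sequences show which part of the Osgep transcript each one matches. The central 21 of the 41 listed bases of each were placed on the longest Osgep transcript of GENCODE M21 (3388 bases), and capitals mark the bases that pair with guide positions 2 to 8, if the guide starts opposite the last base printed.
shOSGEP#1: ccaacatgacgccACAATAAa
shOSGEP#2: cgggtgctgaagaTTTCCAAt
The shOSGEP#1 sequence matched bases 1257 to 1277, in the 3′ UTR within exon 11 of 11, and was present in 4 of 8 annotated Osgep transcripts. The shOSGEP#2 sequence matched bases 611 to 631, in the coding sequence across the junction of exons 4 and 5, and was present in 7 of the 8 transcripts. It also matched the pseudogene AC115117.1 without a mismatch, while the shOSGEP#1 sequence matched no other gene in full. Of the 31-base words of Osgep 17.4% occur in other genes, 8.34% in AC115117.1. Among the other 6 identifiers the fewest mismatches over 21 bases were 8 for shOSGEP#1 (Tprkb, Trp53rkb and Osgepl1) and 6 for shOSGEP#2 (Yrdc), beside a median of 8 over 21360 genes for either, with 59.5% of genes at 8 or fewer for shOSGEP#1 and 4.40% at 6 or fewer for shOSGEP#2. The 7 bases ACAATAA occurred 2 times in Osgepl1 and were absent from the Tprkb, Lage3, Yrdc, Trp53rka and Trp53rkb transcripts, and 19.4% of 21360 genes hold them. The 7 bases TTTCCAA occurred 1 time in Lage3 and in none of the other 5, and 28.3% of genes hold them. These matches describe the letters only.

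**Figure D1:**
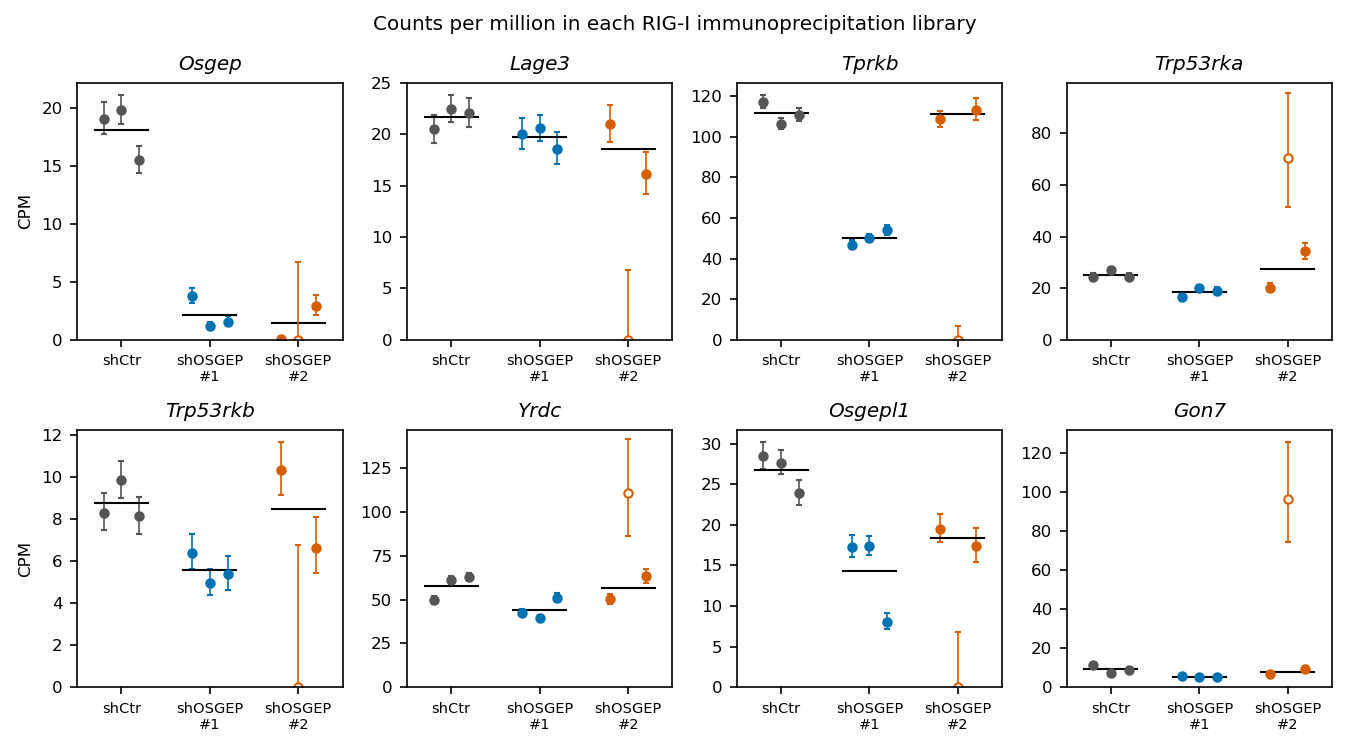
CPM of the 7 t6A synthesis genes and of Gon7 in each library (vertical axes, linear from 0), by group; points are libraries with 95% Wilson intervals, bars are means of the filled points, and the open point is shOSGEP#2 replicate 2. Tprkb sits between 46.9 and 53.9 CPM in the shOSGEP#1 libraries and between 107 and 117 CPM in every shCtr and deep shOSGEP#2 library.

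Tprkb (ENSMUSG00000054226, chromosome 6) encodes the small partner of the TP53RK kinase. Tprkb had 117, 107 and 111 CPM in shCtr, and 46.9, 50.3 and 53.9 CPM in shOSGEP#1. In the deep shOSGEP#2 libraries it had 109 and 113 CPM. All shOSGEP#1 libraries were below the other deep libraries, and the deep shOSGEP#2 libraries lay within the shCtr range. With TMM scaling the deep shOSGEP#2 libraries, both at 106 CPM, lay just below the lowest shCtr library, at 108 CPM. In shOSGEP#1 Tprkb fell to 45.1% of the shCtr mean, a log2 fold change of −1.16 (standard error 0.13, 95% interval −1.45 to −0.87, edgeR adjusted p = 0.000353). In shOSGEP#2 the log2 fold change was −0.10 (standard error 0.14, 95% interval −0.42 to 0.22, edgeR adjusted p = 0.648). The difference between the shRNAs was itself past the threshold, at 1.06 higher in shOSGEP#2 on the log2 scale (standard error 0.14, edgeR adjusted p = 0.000574). Both Tprkb calls were lost when shOSGEP#2 replicate 2, with no Tprkb count, entered the edgeR fit (log2 fold changes −1.17 and 0.51, adjusted p = 1.00 and 0.892). The limma fit of all 9 libraries with sample weights kept both, at −1.17 and 1.08 (adjusted p = 2.42e-05 and 0.00828). Across all 19 alternatives the adjusted p for shOSGEP#1 ran from 5.71e-14 to 1, and the 15 without that library all stayed under 0.01.

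Among the 7 identifiers, all of which passed the filter on low counts, Tprkb was the 1 called lower in shOSGEP#1, where 4.67% of the 12744 genes tested were called lower. At an adjusted p under 0.05 there were 3 of 7, Osgep, Osgepl1 and Tprkb, against 10.5% of genes, and 6 of 7 had an unadjusted p under 0.05, as did 34.9% of genes. In shOSGEP#2 versus shCtr 0 of 7 passed 0.01 in edgeR (3.89% of genes called lower), and 1 of 7 had an unadjusted p under 0.05 (35.6% of genes). DESeq2, which took every gene with a count, called 1, Osgep, among the 2376 genes that it called in either direction. At 0.05 in edgeR, Osgep alone passed in shOSGEP#2, with 9.64% of genes called lower. Between the shRNAs 1 of 7, Tprkb, was called higher in shOSGEP#2, as were 6.23% of genes. Both comparisons with shCtr use the same control libraries.

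The Trp53rk kinase phosphorylates p53 and acts as an ATPase in KEOPS. Trp53rka (ENSMUSG00000039725) had 24.3, 26.8 and 24.5 CPM in shCtr, 16.5, 20.0 and 18.9 CPM in shOSGEP#1, and 20.2 and 34.3 CPM in the deep shOSGEP#2 libraries. Its shOSGEP#1 libraries lay below all shCtr libraries, while the shOSGEP#2 pair spanned them. Trp53rkb (ENSMUSG00000042854) had 8.31, 9.84 and 8.13 CPM in shCtr, 6.40, 4.96 and 5.38 CPM in shOSGEP#1, and 10.3 and 6.64 CPM in shOSGEP#2. Again the shOSGEP#1 libraries did not overlap shCtr and the shOSGEP#2 pair did. In shOSGEP#1 the log2 fold changes were −0.46 for Trp53rka (95% interval −0.91 to −0.01, edgeR adjusted p = 0.133) and −0.67 for Trp53rkb (95% interval −1.27 to −0.06, edgeR adjusted p = 0.112), neither past the threshold. In shOSGEP#2 they were 0.01 (95% interval −0.50 to 0.51) and −0.13 (95% interval −0.81 to 0.55). The paralogs share sequence, with 35.5% of the 31-base words of Trp53rka also in Trp53rkb, so the split of reads between them is uncertain.

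Lage3 (ENSMUSG00000015289, chromosome X) encodes the subunit that binds OSGEP on the side away from the kinase. It had 20.5, 22.5 and 22.1 CPM in shCtr, 20.1, 20.6 and 18.6 CPM in shOSGEP#1, and 21.0 and 16.1 CPM in shOSGEP#2. Both shOSGEP groups overlapped shCtr, although with TMM scaling the shOSGEP#2 libraries, at 20.5 and 15.1 CPM, lay below the lowest shCtr library, at 20.8 CPM. The log2 fold change was −0.15 in shOSGEP#1 (95% interval −0.54 to 0.25, edgeR adjusted p = 0.612) and −0.31 in shOSGEP#2 (95% interval −0.76 to 0.14, edgeR adjusted p = 0.299). When each of the 8 libraries was left out in turn, the shOSGEP#2 value ran from −0.56 to −0.11. With all 9 libraries it was −0.81 (edgeR adjusted p = 0.818). Of its 31-base words 13.1% occur in other genes, with Gm16391 holding the most, 5.74%.

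Yrdc (ENSMUSG00000028889, chromosome 4), the enzyme of the first step, had 49.9, 61.4 and 62.9 CPM in shCtr, 42.6, 39.3 and 51.1 CPM in shOSGEP#1, and 50.5 and 63.2 CPM in the deep shOSGEP#2 libraries. One shOSGEP#1 library reached into the shCtr range, and the shOSGEP#2 pair overlapped shCtr. The log2 fold change was −0.40 in shOSGEP#1 (95% interval −0.77 to −0.04, edgeR adjusted p = 0.111) and −0.13 in shOSGEP#2 (95% interval −0.54 to 0.28, edgeR adjusted p = 0.654).

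Osgepl1 (ENSMUSG00000026096, chromosome 1), the mitochondrial paralog of Osgep, had 28.5, 27.7 and 23.9 CPM in shCtr. In shOSGEP#1 it had 17.3, 17.4 and 8.08 CPM, and in shOSGEP#2 19.5 and 17.4 CPM. It was lower than in shCtr in all 5 deep shOSGEP libraries, and shOSGEP#1 replicate 3 lay far below the other libraries. The log2 fold change was −0.91 in shOSGEP#1 (standard error 0.27, edgeR adjusted p = 0.0334) and −0.62 in shOSGEP#2 (standard error 0.31, 95% interval −1.30 to 0.05, edgeR adjusted p = 0.170), both short of the threshold. DESeq2 on the same libraries gave −0.91 with an adjusted p of 0.00744 for shOSGEP#1, within a range over 19 alternatives of 0.00287 to 1. Mitochondrially encoded genes made up 2.96% of the counts of shOSGEP#1 replicate 3 and at most 0.445% of the other deep libraries, and without that library the log2 fold change was −0.63 (edgeR adjusted p = 0.0379). Osgepl1 overlaps Gm28778 on the same strand, which holds 15.3% of its 31-base words, so its reads may be divided between them.

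Every library of shOSGEP#1 was below every library of shCtr for 5 of the 7 identifiers, Osgep, Tprkb, Trp53rka, Trp53rkb and Osgepl1, as was the case for 22.2% of all genes tested. For the deep shOSGEP#2 libraries this held for 2 of 7, Osgep and Osgepl1, and for 23.6% of genes. With TMM-normalized CPM it was 4 of 7 in shOSGEP#2, with Tprkb and Lage3 added (28.5% of genes), and the same 5 of 7 in shOSGEP#1 (22.9% of genes). All 7 log2 fold changes were below 0 in shOSGEP#1 under TMM, RLE and library-total scaling, beside 49.9% of all genes under TMM, with a median of −0.67 against 0.00. In shOSGEP#2, 6 of 7 were below 0 under each of these scalings (53.4% of all genes under TMM), with a median of −0.13 against −0.06. The CPM of the 7 summed to 268, 275 and 268 in shCtr, to 154, 154 and 158 in shOSGEP#1, and to 230 and 254 in the deep shOSGEP#2 libraries. The shOSGEP#1 sums were the lowest, and Tprkb made up the largest part of the difference. Without Osgep the sums were 249, 255 and 252 in shCtr, 150, 153 and 156 in shOSGEP#1, and 230 and 251 in shOSGEP#2, which then overlapped shCtr.

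**Figure D2:**
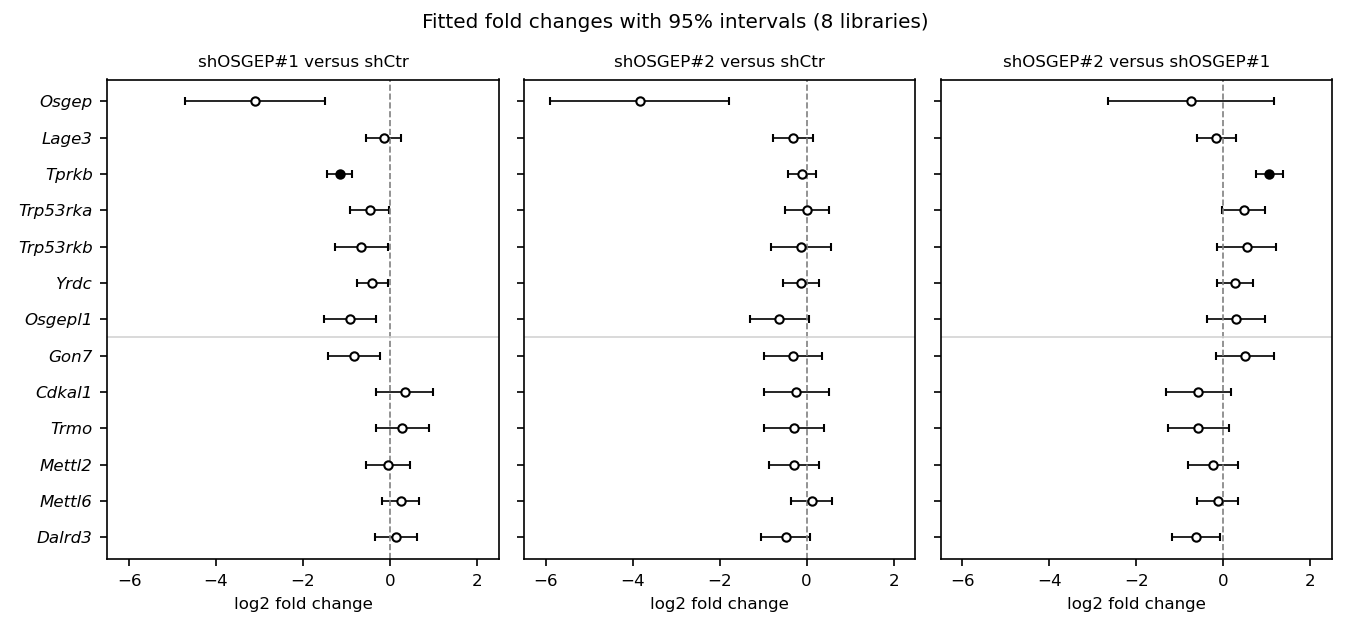
Log2 fold changes (horizontal axes) with 95% intervals from the edgeR fit of 8 libraries for the 7 t6A synthesis genes (above the line) and 6 further genes (below), Gon7 of KEOPS and others that act on t6A or on tRNAs that bear it, in the 3 comparisons; filled points passed an adjusted p under 0.01. Tprkb is the filled point in shOSGEP#1 versus shCtr (−1.16) and in shOSGEP#2 versus shOSGEP#1 (1.06).

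Divided by transcript length (the longest of each gene in GENCODE M21), the order of levels in shCtr was Tprkb (50.2 ± 2.45 CPM per kb, SD, n = 3), Yrdc (35.5 ± 4.34), Trp53rka (13.4 ± 0.758), Lage3 (10.9 ± 0.526), Osgepl1 (6.67 ± 0.606), Osgep (5.36 ± 0.686) and Trp53rkb (1.98 ± 0.213). With these lengths no neighbours overlapped over the 3 libraries. For Osgepl1 the longest transcript, of 4005 bases, is not its longest coding one, of 2283 bases, and with coding transcripts, a choice made after seeing the data, Osgepl1 (11.7 ± 1.06) came before Lage3 and overlapped it. With the median transcript length Lage3 came before Trp53rka, and Osgepl1 and Osgep overlapped. In shOSGEP#1, Yrdc and Tprkb overlapped at the top (27.1 and 22.7 CPM per kb), as did Lage3 and Trp53rka in the middle, and Osgep was last at 0.634 CPM per kb. In shOSGEP#2 Tprkb was again first (50.0 CPM per kb) and Osgep last (0.437 CPM per kb).

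Read against all genes, the level of Tprkb over the 8 libraries was most like those of Dpagt1, Nmt2 and Mef2d (Pearson r of log2 TMM-normalized CPM 0.988, 0.988 and 0.985, a description over libraries that share the group structure). Dpagt1, the enzyme of the first step of N-glycan assembly, had 31.7, 31.7 and 34.9 CPM in shCtr, 11.5, 13.7 and 12.7 CPM in shOSGEP#1, and 27.9 and 33.1 CPM in shOSGEP#2. It shared with Tprkb the low shOSGEP#1 libraries. The genes most like Osgep were Spp1 and Commd4 (r = 0.972 and 0.971), and Spp1, which encodes osteopontin, had 7.39, 8.02 and 4.86 CPM in shCtr, 1.48, 1.31 and 1.11 CPM in shOSGEP#1, and 0.157 and 1.01 CPM in shOSGEP#2. For Osgepl1 they were Dnajc5, Srl and Tedc2 (r = 0.985, 0.982 and 0.981), and for Lage3 Stil, Rdh5 and BC055324 (r = 0.978, 0.977 and 0.975). For Yrdc they were Ccng1, Fam120c and Rlim (r = 0.961, 0.959 and 0.958). Trp53rka was most like Cyb561d1, Zfp983 and Gm12260 (r = 0.973, 0.968 and 0.956). Among the members themselves, Tprkb was most alike with Trp53rkb, Trp53rka and Yrdc (r = 0.774, 0.754 and 0.746), and Lage3 with Osgepl1 (r = 0.516). The lowest correlation was between Lage3 and Trp53rka (r = −0.288).

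Of 6 further genes, Gon7 of KEOPS and others that act on t6A or on tRNAs that bear it, 0 passed the edgeR threshold in either comparison with shCtr. Of the 12744 genes tested, 1232 passed it in shOSGEP#1 and 1217 in shOSGEP#2. An unadjusted p under 0.05 was reached by 1 and 0 of the 6, beside 34.9% and 35.6% of all genes. Gon7, the fifth KEOPS subunit, had 11.3, 7.52 and 9.02 CPM in shCtr, 5.53, 5.06 and 5.28 CPM in shOSGEP#1, and 6.64 and 9.32 CPM in the deep shOSGEP#2 libraries. Its shOSGEP#1 libraries were below all the others. Its log2 fold change was −0.82 in shOSGEP#1 (95% interval −1.42 to −0.23, edgeR adjusted p = 0.0499) and −0.32 in shOSGEP#2 (95% interval −0.99 to 0.35, edgeR adjusted p = 0.482). With all 9 libraries the shOSGEP#2 value turned to 1.34 (95% interval −0.57 to 3.25, edgeR adjusted p = 0.684). Cdkal1, which turns t6A into its methylthio form, Trmo, which methylates it, and Mettl2, Mettl6 and Dalrd3, which methylate or assist at other bases of such tRNAs, had log2 fold changes between −0.05 and 0.34 in shOSGEP#1 and between −0.49 and 0.12 in shOSGEP#2. With all 9 libraries those in shOSGEP#2 ran from −0.96 to −0.39, with Mettl6 turned from 0.12 to −0.39. The list's median, Gon7 included, was 0.19 and −0.29 on 8 libraries, against 0.00 and −0.06 for all genes. On all 9 it was −0.68 in shOSGEP#2, against −0.37 for all genes, of which 66.6% were below 0.

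Of 8 enzymes that modify position 37 of other tRNAs, 7 passed the filter. In edgeR 0 of these 7 passed the threshold against shCtr, where 1232 and 1217 of the 12744 genes tested did so in shOSGEP#1 and shOSGEP#2. An unadjusted p under 0.05 was reached by 2 of the 7 in shOSGEP#1 and 0 in shOSGEP#2 (34.9% and 35.6% of all genes). Lcmt2 did not pass the filter, since shOSGEP#2 replicate 3 held 36 of its counts and no other library more than 5. Tyw1, of wybutosine synthesis, had 24.0, 21.3 and 16.3 CPM in shCtr, 30.5, 40.7 and 36.6 CPM in shOSGEP#1, and 25.5 and 14.3 CPM in shOSGEP#2. The shOSGEP#1 libraries were the highest, with a log2 fold change of 0.80 (edgeR adjusted p = 0.0390). Tyw3 of the same pathway had 2.33, 2.99 and 1.51 CPM in shCtr, 4.66, 5.14 and 7.30 CPM in shOSGEP#1 (log2 fold change 1.31, edgeR adjusted p = 0.0504), and 2.63 and 5.77 CPM in shOSGEP#2 (log2 fold change 0.77, edgeR adjusted p = 0.274), where replicate 3 lay within the shOSGEP#1 range. Neither passed the threshold. Trmt12, also of wybutosine synthesis, had 10.1, 10.6 and 7.10 CPM in shCtr, 9.41, 8.06 and 9.97 CPM in shOSGEP#1, and 12.8 and 16.9 CPM in shOSGEP#2. Its deep shOSGEP#2 libraries were the highest of the 8, with a log2 fold change of 0.58 (95% interval −0.01 to 1.16, edgeR adjusted p = 0.145). With all 9 libraries the shOSGEP#2 value was 2.96 for Trmt12 (95% interval 0.61 to 5.30, edgeR adjusted p = 0.378) and 0.46 for Tyw3.

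Next to Osgep lies Apex1, which encodes the endonuclease of abasic DNA sites. Its level was 70.3, 67.9 and 81.5 CPM in shCtr, 75.4, 82.0 and 58.6 CPM in shOSGEP#1, and 35.0 and 34.1 CPM in the deep shOSGEP#2 libraries. The shOSGEP#2 pair was below every other deep library. Apex1 fell in shOSGEP#2 (log2 fold change −1.18, standard error 0.19, edgeR adjusted p = 0.00173), had a log2 fold change of −0.04 in shOSGEP#1 (95% interval −0.39 to 0.32), and differed between the shRNAs by −1.14 (edgeR adjusted p = 0.00175). With all 9 libraries both Apex1 calls were lost, at −1.31 in shOSGEP#2 and −1.27 between the shRNAs (edgeR adjusted p = 0.293 and 0.268). Of the other neighbours (Klhl33, Tep1, Parp2, Pip4p1 and Pnp), Pip4p1 in shOSGEP#1 (log2 fold change −0.69, edgeR adjusted p = 0.0254) and Tep1 in shOSGEP#2 (0.63, edgeR adjusted p = 0.0273) came closest to the threshold against shCtr and did not pass it. Ddx58, the gene of RIG-I itself, had 180, 184 and 278 CPM in shCtr, 232, 216 and 327 CPM in shOSGEP#1, and 402 and 429 CPM in shOSGEP#2. Both deep shOSGEP#2 libraries were the highest, with a log2 fold change of 0.86 (edgeR adjusted p = 0.0239), short of the threshold, and of 0.29 (edgeR adjusted p = 0.940) with all 9 libraries, where shOSGEP#2 replicate 2 had no Ddx58 count. The Ddx58 counts may include transcripts of the FLAG-RIG-I construct that the cells carried, and their share was not tested.

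In shOSGEP#2 replicate 2 the counts were 0 for Osgep, Lage3, Tprkb, Trp53rkb and Osgepl1, 40 for Trp53rka and 63 for Yrdc. With a floor of 3 counts, levels below 5.27 CPM are not detectable there, so a level of Osgep like that in the other shOSGEP libraries could not have been seen. Tprkb at the mean level of the other shOSGEP#2 libraries would have given 63.2 counts there, and Ddx58, also at 0, 236 counts. Of the 9721 genes with a mean count at least that of Trp53rkb, 58.1% had no count in this library. Trp53rka at 70.3 CPM (95% Wilson interval 51.6 to 95.7) and Yrdc at 111 CPM (86.5 to 142) were above every other library, as was Gon7 with 55 counts, 96.7 CPM (74.3 to 126). Of those 9721 genes 17.3% had an interval above every other library, or 41.4% of the 4069 with a count there. Lars2 took 6.79% of its counts, against 1.10% and 0.264% in the other shOSGEP#2 libraries and at most 0.134% in shCtr and shOSGEP#1. These intervals cover counting error only.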

How the data were processed

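RNA recovered with FLAG-RIG-I was depleted of ribosomal RNA, and the authors trimmed the reads with Trim Galore, aligned them with STAR to GRCm39 and used Salmon for quantification. The deposited table holds whole-number counts for each gene and library, not normalized. The members and lists were chosen with earlier results of these data known. The tests used edgeR 4.0.16 in R 4.3.3, with TMM, filterByExpr (12744 genes), a coefficient per group, the quasi-likelihood test on 8 libraries, Benjamini-Hochberg adjustment over all genes tested and a threshold of 0.01. shOSGEP#2 replicate 2, with 568995 counts, was left out for its depth and put back as an alternative. Standard errors are the log2 fold change over the square root of F. DESeq2 1.42.0, limma 3.58.1 (voom with sample quality weights), other scalings and filters, fewer groups, a replicate block, and leaving out each library were the alternatives. The fits were tested on simulated data, in which all genes had the same dispersion. They were kept because the median log2 fold changes came back within 0.2 of the true ones. This criterion replaced an earlier one on the number of genes recovered, which was not met. There both tools missed most genes with a log2 fold change of 1, and DESeq2 made more false calls than edgeR. The lack of a call thus does not by itself exclude a change of that size, although the 95% intervals of some uncalled genes do. Genes named were the members, Gon7 and genes acting on t6A, position 37 enzymes, the 3 nearest counted genes on each side of Osgep, up to 3 of the genes most like a member and Ddx58, with Lars2, named for its share of the counts of some libraries, and melanocytic, fibroblast, leukocyte and endothelial markers. Likeness is Pearson r of log2 TMM-normalized CPM with a prior count of 2. Names, lengths and neighbours came from GENCODE M21 (GRCm38), another build than the counts, and 22237 of 22396 identifiers matched, so no coordinates are given. The shRNA sequences came from the study's oligo list. Intervals for CPM are 95% Wilson intervals. Tables and figures were made in Python 3.11.15 with matplotlib 3.10.9, scipy 1.17.1, pandas 2.3.3 and numpy 2.4.6.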

Additional observations from a re-analysis of the deposited data

Results flagged for a closer look

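The effects of the 2 shRNAs against the same control differed for Tprkb, by 1.06 on the log2 scale (shOSGEP#2 minus shOSGEP#1, edgeR adjusted p = 0.000574), with all 3 shOSGEP#1 libraries below both deep shOSGEP#2 libraries. They also differed for Apex1, by −1.14 (edgeR adjusted p = 0.00175), with both deep shOSGEP#2 libraries below all shOSGEP#1 libraries. Neither difference was called with all 9 libraries in the edgeR fit, at 0.51 for Tprkb and −1.27 for Apex1 (adjusted p = 0.892 and 0.268). In shOSGEP#2 replicate 2, which the tests left out, the t6A synthesis genes Trp53rka (70.3 CPM) and Yrdc (111 CPM), Gon7 (96.7 CPM) and Trmt12 (313 CPM) had 95% Wilson intervals above every shCtr value. So did 21.5% of the 9721 genes with a mean count at least that of Trp53rkb, while 58.1% of these had no count in that library. Of the melanocytic markers Sox10 was above shCtr there (1090 CPM) and the other 6 were below every shCtr library, with Tyr and Mitf at 0, and of the fibroblast markers Col1a1 was above (68.5 CPM) and the other 4 were at 0. The cause was not tested.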

How the results depend on the processing

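Every alternative was fitted to the same counts. DESeq2 and the fit without a filter took every gene with a count, more than the 12744 of the main fit. With all 9 libraries edgeR called 0 genes and 0 members in each comparison, and Tprkb lost both calls, at −1.17 in shOSGEP#1, where the standard error was 1.12 in place of 0.13, and at 0.51 between the shRNAs. There Yrdc in shOSGEP#2 reversed to 0.00373 and Osgepl1 between the shRNAs to −0.19. DESeq2 on all 9 called 122 genes in shOSGEP#1, 351 in shOSGEP#2 and 410 between the shRNAs, with 0, 1 and 0 members, and gave Tprkb −1.14 and 0.43 (not called), Osgep −4.07 in shOSGEP#2 (called) and Osgepl1 −0.25 between the shRNAs (reversed). The limma fit with voom and sample weights on all 9 called 3317, 1012 and 933 of the 12337 genes that passed the filter there. It called 5, 0 and 1 members, keeping both Tprkb calls. In shOSGEP#1 it added Osgep at −3.46, Osgepl1 at −0.78, Trp53rkb at −0.76 and Yrdc at −0.51, and it reversed Trp53rka in shOSGEP#2 to −0.00254. DESeq2 on the 8 libraries called 2401, 2376 and 2542 genes, where edgeR called 1232, 1217 and 1375, with 2, 1 and 1 members, where edgeR called 1, 0 and 1, and Osgep in shOSGEP#2 was called, at a smaller change of −3.72. Without a filter Osgep was called in both comparisons with shCtr at the same −3.10 and −3.84, with 2, 1 and 1 members among 1748, 1603 and 1803 genes called, and a filter that asked every library for 10 counts gave no value for Osgep. With only the 2 groups compared Osgep in shOSGEP#1 was called at −3.11, with 2 members called, and 737 genes were called between the shRNAs. At an adjusted p under 0.05 edgeR called 2797, 2674 and 2952 genes and 3, 1 and 1 members, and Osgep passed with −3.10 and −3.84. When each of the 8 libraries was left out in turn, genes called ran from 318 to 1458 in shOSGEP#1, 518 to 1471 in shOSGEP#2 and 743 to 1504 between the shRNAs, and members called from 1 to 2, 0 to 1 and 1 to 1. Osgep then ran from −3.77 to −2.79 in shOSGEP#1, from −7.86 to −2.78 in shOSGEP#2, where the lowest rests on 2 counts, under the floor, and from −4.75 to 0.32 between the shRNAs, above 0 without shOSGEP#2 replicate 1. Tprkb ran from −1.21 to −1.11, from −0.14 to −0.06 and from 1.02 to 1.11. Trp53rka in shOSGEP#2 ran from −0.38 to 0.31 (below 0 without shCtr replicate 1, shCtr replicate 3 or shOSGEP#2 replicate 3), and without shOSGEP#2 replicate 3 Trp53rkb in shOSGEP#2 (−0.53 to 0.17) and Lage3 between the shRNAs (−0.41 to 0.0366) changed sign. Of 21 places in the order of levels in shCtr, 14 were the same with other lengths or none. The labels tie libraries across groups only by a replicate number. After removal of group means the correlation between libraries of the same number ran from −0.00337 to 0.180 (mean 0.0809, 7 pairs). Between libraries of different number it ran from −0.180 to 0.144 (mean −0.0398, 14 pairs). The 2 deep shOSGEP#2 libraries mirror each other after this removal, so their correlations come with opposite signs. Not every pair of the same number was above 0.1 and not every library correlated best with its own number. A replicate block on the 8 libraries changed no member call (1, 0 and 1). The block on all 9 called 0 genes and 0 members in each comparison, with Tprkb at −1.15 and 0.10, and reversed Yrdc in shOSGEP#2 to 0.00451, and Trp53rkb and Osgepl1 between the shRNAs to −0.0868 and −0.40. The cause of these shifts was not tested.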
